A study of Homo sapiens with 4 samples.

Results

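HERPUD1 and 8 further genes of endoplasmic reticulum (ER)-associated degradation (ERAD) were followed in K562 cells, a human leukaemia cell line, after 4 h of treatment with AC-1041. The 9 genes (HERPUD1, SEL1L, SYVN1, DERL1, DERL2, EDEM1, EDEM2, OS9 and VCP) were chosen by name as machinery of this pathway, with earlier results of these data known. Each was read by 1 probe, so that 9 of the 14297 gene probes of the array belonged to them. AC-1041 is a thalidomide analog, a trifluorophthalimide that carries a morpholine group and that the study follows into lipid droplets, the fat stores that form at the ER membrane. Each of 4 two-colour arrays carried RNA of treated cells and RNA of control cells side by side. The treated RNA carried the dye Cy5 on arrays 1 and 2 and the dye Cy3 on arrays 3 and 4, with the control RNA in the other dye. The labels call the control cells untreated, whereas the study's methods describe solvent (DMSO) controls, and which culture went onto which array was not given. The spread between the arrays may therefore be technical. The p-values of the reported fit measure only that spread, and only the part of it within a dye orientation. A term for the dyes takes up the difference between the orientations. In bulk RNA, fewer cells of a type and less RNA per cell cannot be told apart.

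ERAD removes proteins that fail to fold in the ER. In the lumen, the mannosidase-like EDEM1 and EDEM2 mark such proteins, and the lectin OS9 recognises their trimmed sugars. A membrane complex around the ubiquitin ligase SYVN1, its partner SEL1L and the derlins DERL1 and DERL2 passes the proteins to the cytosol. There the ATPase VCP pulls them out of the membrane for the proteasome. HERPUD1, a membrane protein with a ubiquitin-like domain, binds the ligase complex and is a well known target gene of the unfolded protein response, the programme that cells switch on when unfolded proteins gather in the ER.

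The stretch of 250 bases before the transcription start is shown for HERPUD1, the gene with the largest ratio among the 9, and for VCP, the only other gene of the 9 in which a searched motif was found. Both come from RefSeq (GRCh38.p14) and read 5′ to 3′ on the strand of the gene, HERPUD1 at chr16:56931892-56932141 on the plus strand and VCP at chr9:35072626-35072875 on the minus strand. Capitals mark the fixed letters of a motif.
HERPUD1: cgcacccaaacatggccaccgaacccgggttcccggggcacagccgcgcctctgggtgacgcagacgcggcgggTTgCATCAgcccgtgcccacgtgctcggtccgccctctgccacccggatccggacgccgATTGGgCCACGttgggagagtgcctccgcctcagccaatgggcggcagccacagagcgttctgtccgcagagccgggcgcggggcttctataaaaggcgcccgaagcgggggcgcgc
VCP: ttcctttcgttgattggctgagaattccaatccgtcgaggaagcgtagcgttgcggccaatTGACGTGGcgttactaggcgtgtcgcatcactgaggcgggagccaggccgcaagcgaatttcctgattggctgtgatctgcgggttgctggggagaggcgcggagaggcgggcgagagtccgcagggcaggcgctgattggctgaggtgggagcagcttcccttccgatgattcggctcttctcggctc
The 4 motifs searched on both strands were the ER stress response element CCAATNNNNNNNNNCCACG, its second form ATTGGNCCACG, the unfolded protein response element TGACGTGG and the C/EBP-ATF composite element TTNCATCA, where N is any base. The promoter of HERPUD1 held the second form of the ER stress response element from base -117 to -107 and the C/EBP-ATF composite element from base -176 to -169, counted from the start. These elements were found in 0.0541% and 3.62% of the 35116 promoters of 300 bases in the same table. The promoter of VCP held the unfolded protein response element from base -189 to -182, an element found in 0.729% of the promoters. The longer ER stress response element, found in 0.0769% of the promoters, was as spelled in none of the 8 member promoters that the table held. Runs that differ from a motif by a base were not searched. The promoters of SEL1L, SYVN1, DERL2, EDEM1, EDEM2 and OS9 held none of the 4 motifs as spelled. DERL1 was not in the table. A match is a run of letters and was not tested as a binding site.

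The arrays differed in quality along with the dyes. Per array and channel, 5941 to 9515 probes were well above background, and the SD of the negative control spots was 226 to 308 on arrays 1 and 2 but 27.8 to 40.5 on arrays 3 and 4. Log2 ratios of treated over control cells correlated across probes with r of 0.807 and 0.944 between arrays of the same dye orientation, and with r of -0.288 to -0.116 between arrays of opposite orientation (genes are not independent replicates). Arrays 1 and 2 lay in the other slide row from arrays 3 and 4, so that slide row, dye orientation and background cannot be told apart, and a dye term stood in the model beside the treatment. All 9 erythroleukemia markers on the array had signal well above background on at least 3 arrays, in treated and in control cells. Of the markers of other cell types, 6 never had such signal, whereas EPCAM had it on all 4 arrays and CD3E on 2, in either channel, and their part in the results was not tested.

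Of the 9 ERAD genes, HERPUD1 and SEL1L were higher and DERL1 was lower in treated cells, and 6 did not pass the test (limma, adjusted p under 0.05). SEL1L entered the test only through its signal in treated cells, the group where it was called higher. The share called was 33.3%, against 37.3% of the 8852 probes tested. By direction, 24.3% of the probes tested were called higher and 13.0% lower. Their log2 ratios had a median of 0.08, against 0.02 over all probes tested. The share called among the 9 genes was thus close to that of the array as a whole. Higher probes made up 65.2% of all calls after loess normalization and 79.9% after median centring of each array. HERPUD1 and SEL1L stayed higher and DERL1 stayed lower with median centring.

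HERPUD1 was the gene with the largest increase of the 9 (probe at hg18 chr16:55535201-55535260, plus strand). Its normalized intensity in treated cells was 22420, 29480, 32030 and 39390 on arrays 1 to 4, and in control cells 6137, 7524, 5366 and 5967. Every treated value was above every control value, by a wide margin. The log2 ratios on the 4 arrays were 1.87, 1.97, 2.58 and 2.72, and their mean was 2.29 ± 0.43 (SD, n = 4 arrays). The fitted change was 4.87-fold higher (log2 2.29, limma SE 0.07, 95% confidence interval 2.13 to 2.44, adjusted p = 1.21e-06). The SE and the interval leave out the difference between the dye orientations, and the interval holds none of the ratios of the 4 arrays. This ratio ranked 3 of the 8852 probes tested. The increase was present in both dye orientations, with a mean log2 ratio of 1.92 where treated RNA carried Cy5 and of 2.65 where it carried Cy3. The increase differed in size between the orientations, as the dye term of the fit shows (limma adjusted p = 0.00203). The plot of log2 ratios by array shows this spread for each of the 9 genes.

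**Figure D1:**
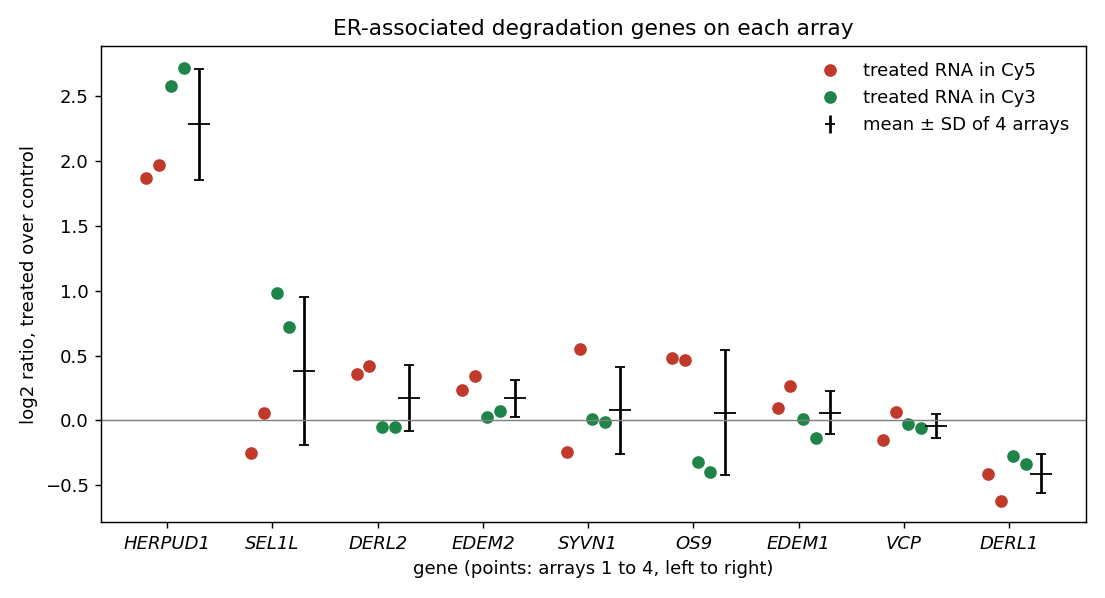
Log2 ratio of treated over control cells (vertical axis) for each of the 9 genes (horizontal axis), 1 point per array, arrays 1 to 4 from left to right, red where treated RNA carried Cy5 and green where it carried Cy3. Black bars are the mean ± SD of the 4 arrays. HERPUD1 lies between 1.87 and 2.72 on every array, and DERL1 is below 0 on every array.

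SEL1L, the adaptor that holds substrate lectins to the ligase, was called higher, but its values rested on arrays 3 and 4 (probe at hg18 chr14:81012684-81012743). Its treated intensity was 481.4, 534.3, 486.1 and 449.9 on the 4 arrays, and its control intensity was 572.9, 512.4, 245.7 and 272.4. The treated values were alike on all arrays, while the control values were about as high as these on arrays 1 and 2 and lower on arrays 3 and 4, so that the groups overlapped. The log2 ratios were -0.25, 0.06, 0.98 and 0.72, with a mean of 0.38 ± 0.57 (SD, n = 4 arrays). The fit gave 1.30-fold (log2 0.38, limma SE 0.08, adjusted p = 0.0072), and its dye term passed the test as well (limma adjusted p = 0.00138). The probe was dim and was well above background on 2 arrays in treated cells and on 1 array in control cells. The test needed such signal on 2 arrays, so the control cells alone would not have brought SEL1L into it. The call was lost with Feature Extraction's processed signals (log2 0.24, limma adjusted p = 0.43), with the deposited table of ratios (0.25, adjusted p = 0.437), without the dye term (adjusted p = 0.564) and without array 3 (0.31, adjusted p = 0.0829). Over all alternatives the adjusted p ran from 5.97e-05 to 0.564.

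SYVN1, the ubiquitin ligase of the complex, did not pass the test (probe at hg18 chr11:64652241-64652300). Its log2 ratios were -0.24, 0.55, 0.01 and -0.01, with a mean of 0.08 ± 0.34 (SD, n = 4 arrays), and the limma adjusted p was 0.63. The ratios of arrays 3 and 4 were close to 0, and those of arrays 1 and 2 lay on opposite sides of it. The interval of the fit, -0.19 to 0.34, leaves changes of either direction possible. On array 2 neither channel was well above background. The fitted ratio was 0.28 without array 1, and then past the threshold (limma adjusted p = 0.00545, range over the alternatives 0.00545 to 0.908), and -0.12 without array 2.

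DERL1, a derlin of the retrotranslocation channel, was the only gene of the 9 called lower (probe at hg18 chr8:124095839-124095898). Its treated intensity was 5620, 6160, 5859 and 6257 on arrays 1 to 4, and its control intensity was 7495, 9457, 7068 and 7885. Every treated value lay below every control value. The log2 ratios were -0.42, -0.62, -0.27 and -0.33, with a mean of -0.41 ± 0.15 (SD, n = 4 arrays). The fitted change was 1.33-fold lower (log2 -0.41, limma SE 0.07, 95% confidence interval -0.57 to -0.25, adjusted p = 0.00222), and its dye term did not pass the test (limma adjusted p = 0.205). The call was lost without the dye term in the model (limma adjusted p = 0.199, range over the alternatives 3.34e-05 to 0.199), where the ratio itself was the same.

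DERL2, the related derlin, did not pass the test, with ratios above 0 on arrays 1 and 2 and close to 0 on arrays 3 and 4 (probe at hg18 chr17:5318637-5318696). Its log2 ratios were 0.36, 0.42, -0.05 and -0.05, with a mean of 0.17 ± 0.26 (SD, n = 4 arrays, limma adjusted p = 0.0656). The treated intensities of 12560 to 18130 overlapped the control intensities of 13010 to 13990. The dye term of DERL2 passed the test (limma adjusted p = 0.0173). DERL2 passed the test where both channels had to be well above background on all arrays (limma adjusted p = 0.0469) and with a prior that followed the intensity (limma adjusted p = 0.0382, range over the alternatives 0.0382 to 0.675). The difference in response between the derlins was not tested.

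**Figure D2:**
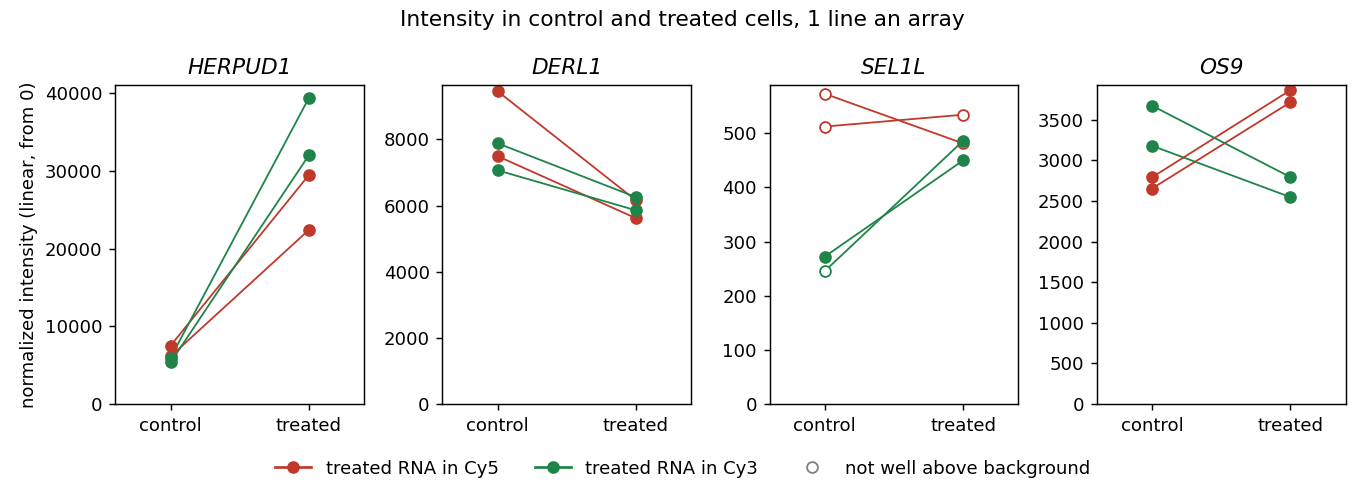
Normalized intensity (vertical axes, linear from 0, a scale for each gene) of HERPUD1, DERL1, SEL1L and OS9 in control and treated cells, 1 line per array, red where treated RNA carried Cy5 and green where it carried Cy3, open points where the signal was not well above background. All lines of HERPUD1 rise and all of DERL1 fall, while those of OS9 rise on arrays 1 and 2 and fall on arrays 3 and 4.

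Among the lumenal genes, none passed the test. EDEM1, a mannosidase-like protein that marks glycoproteins for disposal, had log2 ratios of 0.09, 0.27, 0.01 and -0.13 (probe at hg18 chr3:5232754-5232814; mean 0.06 ± 0.17, SD, n = 4 arrays; limma adjusted p = 0.534). EDEM2, the related mannosidase, had log2 ratios of 0.23, 0.34, 0.03 and 0.08 (probe within hg18 chr20:33167366-33170089; mean 0.17 ± 0.14, SD, n = 4 arrays; limma adjusted p = 0.0707). The ratios of EDEM2 were above 0 on every array, but the treated intensities of 2923 to 4081 overlapped the control intensities of 2626 to 3474. EDEM2 passed the test with median centring (log2 0.30, limma adjusted p = 0.0127) and without array 1 (0.20, adjusted p = 0.0397, range over the alternatives 0.0127 to 0.604). OS9, a lectin that delivers glycoproteins to SEL1L, had log2 ratios of 0.49, 0.47, -0.32 and -0.39 (probe at hg18 chr12:56399096-56399155; mean 0.06 ± 0.48, SD, n = 4 arrays; limma adjusted p = 0.497). Its ratio changed sign with the dyes, and its dye term passed the test (limma adjusted p = 0.000844).

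VCP, the ATPase that extracts substrates, varied least of the 9 (probe at hg18 chr9:35049068-35049127). Its treated intensity was 21260, 19340, 17350 and 18620 on the 4 arrays, and its control intensity was 23580, 18430, 17710 and 19420. The groups overlapped throughout. The log2 ratios were -0.15, 0.07, -0.03 and -0.06, with a mean of -0.04 ± 0.09 (SD, n = 4 arrays; limma adjusted p = 0.658; 95% confidence interval of the fit -0.20 to 0.12). The interval did not reach the fitted change of HERPUD1 or that of DERL1.

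Read across the 9 genes, the log2 ratio had the same sign on all 4 arrays for 3 of them, HERPUD1, EDEM2 and DERL1, against 25.9% of the 7991 probes measured on all arrays. In the order of the fitted ratios, HERPUD1 stood first, followed by SEL1L, DERL2, EDEM2, SYVN1, OS9, EDEM1, VCP and DERL1. The step from HERPUD1 to SEL1L was 1.91 on the log2 scale, more than the SD of either gene, and the step from VCP to DERL1 was 0.37, also more than the SD of either. The neighbours from SEL1L to VCP stood apart by steps of 0.208 or less. These were smaller than the SD of both genes, except that the step from EDEM1 to VCP (0.10) was above the SD of VCP (0.09) but not that of EDEM1 (0.17).

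**Figure D3:**
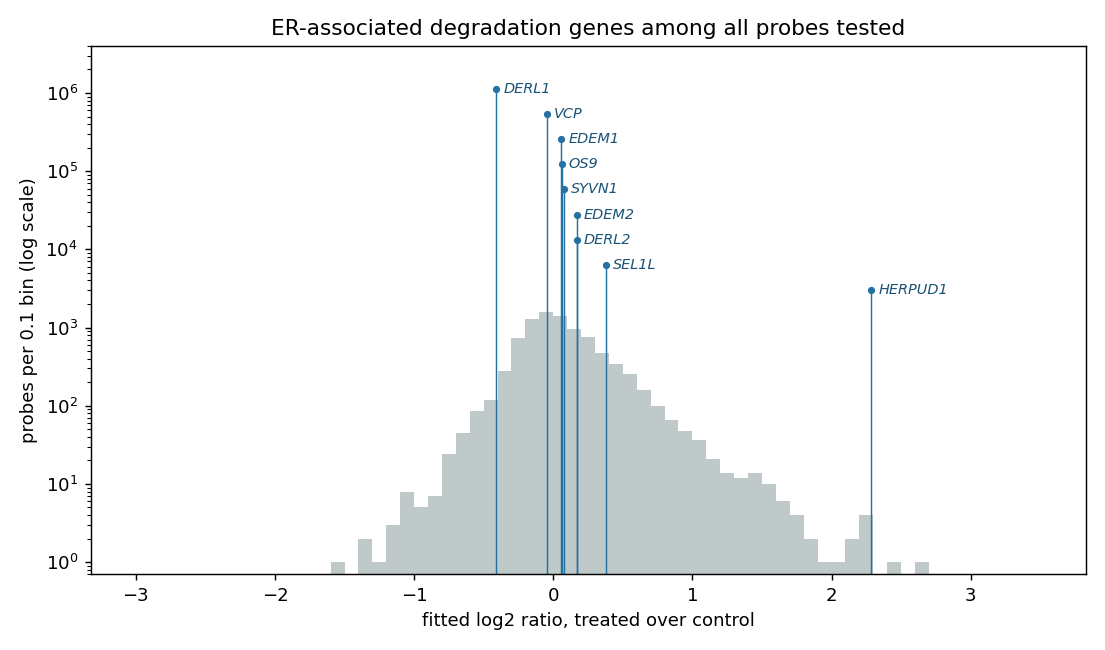
Fitted log2 ratios (horizontal axis) of all 8852 probes tested, in bins of 0.1, with the number of probes per bin on a log scale (vertical axis). The blue lines mark the 9 genes, and their heights serve only to separate the names. HERPUD1 lies in the upper tail, and the other 8 lie between -0.41 and 0.38.

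HERPUD1 was also set against each of the other 8 genes on the same array. Its log2 ratio was higher than that of each of the 8 on all 4 arrays. The mean difference ran from 1.91 ± 0.23 for SEL1L to 2.69 ± 0.33 for DERL1 (SD, n = 4 arrays). The exact two-sided sign-flip permutation test gave p = 0.125 for every pair, both raw and adjusted over the 8 pairs, which is the smallest value that 4 arrays allow, so that the test could not pass the threshold.

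The wider pathway was described with a list of 62 other ERAD genes, of which 50 had a probe and 47 were tested. Of these, 9 were higher and 3 lower, and 35 did not pass the test. The share called was 25.5%, under the 37.3% of all probes tested, and the median log2 ratio was 0.07 against 0.02 for all probes. DERL3 was not well above background, and UBE2G2 and OTUB1 were left out because of spots marked as outliers. The dye term passed the test in 26 of the 47 genes and in 4 of the 9 genes above, against 58.2% of all probes tested. Without the dye term, DNAJB9 was the only gene of this list that kept its call.

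The counts by role given here stand beside 24.3% of all probes tested called higher and 13.0% called lower. Of 6 lumenal recognition genes tested, 1 was higher and none was lower. This was DNAJB9 (ERdj4), a cochaperone of the ER lumen that hands substrates to BiP. Its log2 ratios were 1.08, 1.14, 1.30 and 1.31, with the smallest SD of the 9 increases on this list. The fitted change was 2.31-fold (log2 1.21 ± 0.12, SD, n = 4 arrays; limma adjusted p = 1.1e-05). Of 9 membrane channel and scaffold genes, 1 was higher and none was lower. SELENOK, a selenoprotein of the ER membrane that binds the derlins, had log2 ratios of 0.60, 0.30, 0.47 and 0.43 (limma adjusted p = 0.00191).

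Among 15 ubiquitin ligases and conjugating enzymes, 4 were higher and 2 lower. That is close to the share over all probes tested, where 37.3% were called, 24.3% higher and 13.0% lower. RNF185, an ER membrane ligase, had log2 ratios of 0.66, 0.76, 0.16 and 0.44 (limma adjusted p = 0.00111). RNF103, another ER membrane ligase, had -0.14, 0.10, 1.21 and 1.26 (limma adjusted p = 0.000348). UBE4A, a U-box ubiquitin chain elongation factor, had -0.15, -0.04, 0.83 and 0.68 (limma adjusted p = 0.00613). RNF139, a sterol-regulated ligase, had -0.69, -0.65, 1.20 and 1.06, with a fitted log2 ratio of 0.23 (limma adjusted p = 0.026). Of these increases, only that of RNF185 was present on all arrays, and the others were carried by arrays 3 and 4. The lower genes were UBE4B, the relative of UBE4A, with a fitted log2 ratio of -0.28 (limma adjusted p = 0.0238) and FBXO2, which recognises sugar chains for an SCF ligase, with -0.22 (limma adjusted p = 0.048). Neither was below 0 on all 4 arrays. The call of RNF139 was lost in 5 of 16 alternatives, namely with Feature Extraction's processed signals (log2 0.19, limma adjusted p = 0.116), with the deposited table of ratios (0.19, adjusted p = 0.112), without the dye term (adjusted p = 0.872), without array 3 (log2 0.19, limma adjusted p = 0.192) and without array 4 (0.26, adjusted p = 0.116, range over the alternatives 0.0126 to 0.872), and that of UBE4A without array 3 (0.29, adjusted p = 0.0782, range 0.000665 to 0.578). The call of UBE4B was lost in 7 of 16 alternatives and that of FBXO2 in 12 of 15, in both without array 2, 3 or 4 among others. Over all alternatives, called or not, UBE4B ran from -0.37 to -0.19 (limma adjusted p 0.000508 to 0.453). FBXO2 ran from -0.27 to -0.14 (limma adjusted p 0.00829 to 0.637).

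Among 17 VCP cofactors and cytosolic transfer genes, 3 were higher and 1 lower, against 24.3% and 13.0% of all probes tested. USP25, a deubiquitinating enzyme, had log2 ratios of 0.50, 0.53, 0.16 and 0.25 (limma adjusted p = 0.00307). ATXN3, a deubiquitinating enzyme that binds VCP, had -0.32, -0.24, 1.27 and 1.13 (limma adjusted p = 0.00107), and it was well above background on 2 arrays in treated and 1 in control cells. Like SEL1L, ATXN3 would not have entered the test through the control cells alone. UBQLN1, a shuttle to the proteasome, had -0.57, 0.27, 1.14 and 0.71 (limma adjusted p = 0.0482). The lower gene was UBL4A, a subunit of the BAG6 complex, with log2 ratios of -0.54, -0.38, -0.42 and -0.80 (limma adjusted p = 0.00139). The call of USP25 was lost without array 4 (0.34, limma adjusted p = 0.0566, range over the alternatives 0.000335 to 0.273). That of UBQLN1 was lost in 9 of 16 alternatives, among them without array 2, 3 or 4. Over all 16, called or not, UBQLN1 ran from 0.18 to 0.60 (limma adjusted p 4.55e-06 to 0.638). Of the 40 other ERAD genes measured on all arrays, 7 had 1 sign on all 4, against the 25.9% of all such probes. Of the 12 other ERAD genes called, 5 had 1 sign on all 4 arrays, namely DNAJB9, SELENOK, RNF185, USP25 and UBL4A.

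**Figure D4:**
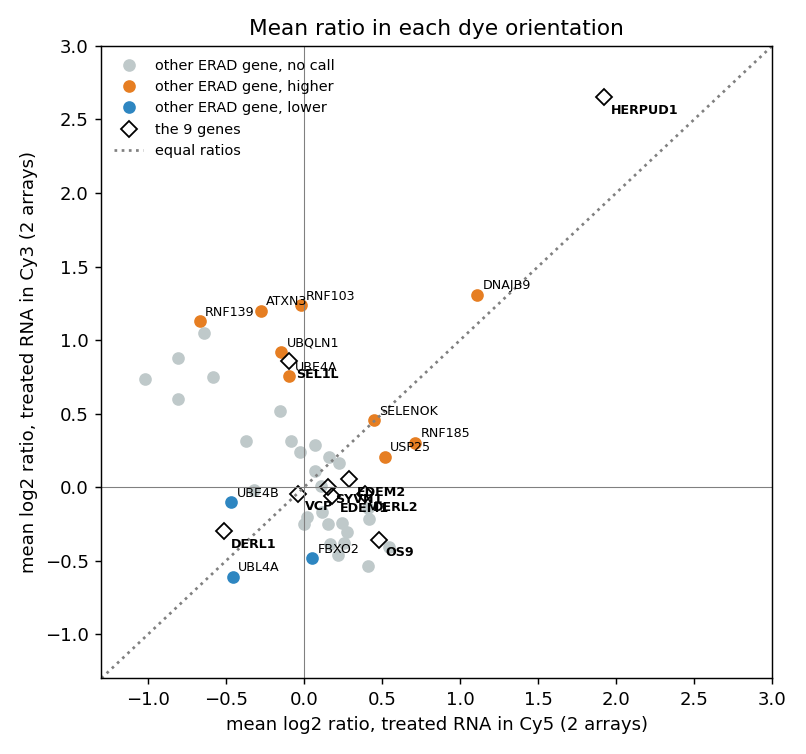
Mean log2 ratio of treated over control cells on the 2 arrays with treated RNA in Cy5 (horizontal axis) and on the 2 arrays with treated RNA in Cy3 (vertical axis), for the 9 genes (diamonds) and the other ERAD genes tested with a value in both orientations (circles, orange where called higher, blue where called lower, grey where not called). The dotted line marks equal ratios. HERPUD1 and DNAJB9 lie far to the upper right in both orientations. Of the genes called higher, SEL1L, RNF139, RNF103, UBE4A, ATXN3 and UBQLN1 are above 0 only on the vertical axis.

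The 5 genes with array profiles closest to that of HERPUD1, by the root mean square difference of the 4 log2 ratios over 7973 genes, were DUSP1 (0.200), ZBTB21 (0.334), CTH (0.343), CREBRF (0.365) and DNAJB4 (0.488). DUSP1, a phosphatase of MAP kinases, had log2 ratios of 1.59, 2.15, 2.36 and 2.78. CTH, an enzyme that makes cysteine from cystathionine, had 1.90, 2.64, 2.48 and 2.83. CREBRF, a regulator of the ER-anchored factor CREB3, had 1.23, 2.14, 2.62 and 3.03. In control cells CREBRF was well above background on 2 arrays and ZBTB21 on 3, so that their ratios rest on dim control signals. ZBTB21, a zinc finger protein, had 1.26, 1.74, 2.71 and 2.78, and DNAJB4, a cytosolic HSP40 cochaperone, had ratios between 1.26 and 3.24, the lower ones on arrays 1 and 2. In all 5, as in HERPUD1, the mean ratio was larger where treated RNA carried Cy3. The 5 were selected by their likeness to HERPUD1, and the ratios are a description. The measure takes in the size of the ratios, and few of the probes tested had a fitted log2 ratio above 2. A likeness in profile apart from size was not tested. Without the dye term ZBTB21, CREBRF and DNAJB4 did not pass the test (limma adjusted p = 0.057, 0.0554 and 0.0708), whereas HERPUD1, DUSP1 and CTH did (each 0.0273).

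The increase of HERPUD1 moved little with the choice of processing. In 16 alternatives its log2 ratio ran from 2.25 to 2.32. Its limma adjusted p was at most 0.0273, the value without the dye term. Without that term, 52 probes were called higher and 4 lower over the whole array, against 2155 and 1151 with it.

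**Figure D5:**
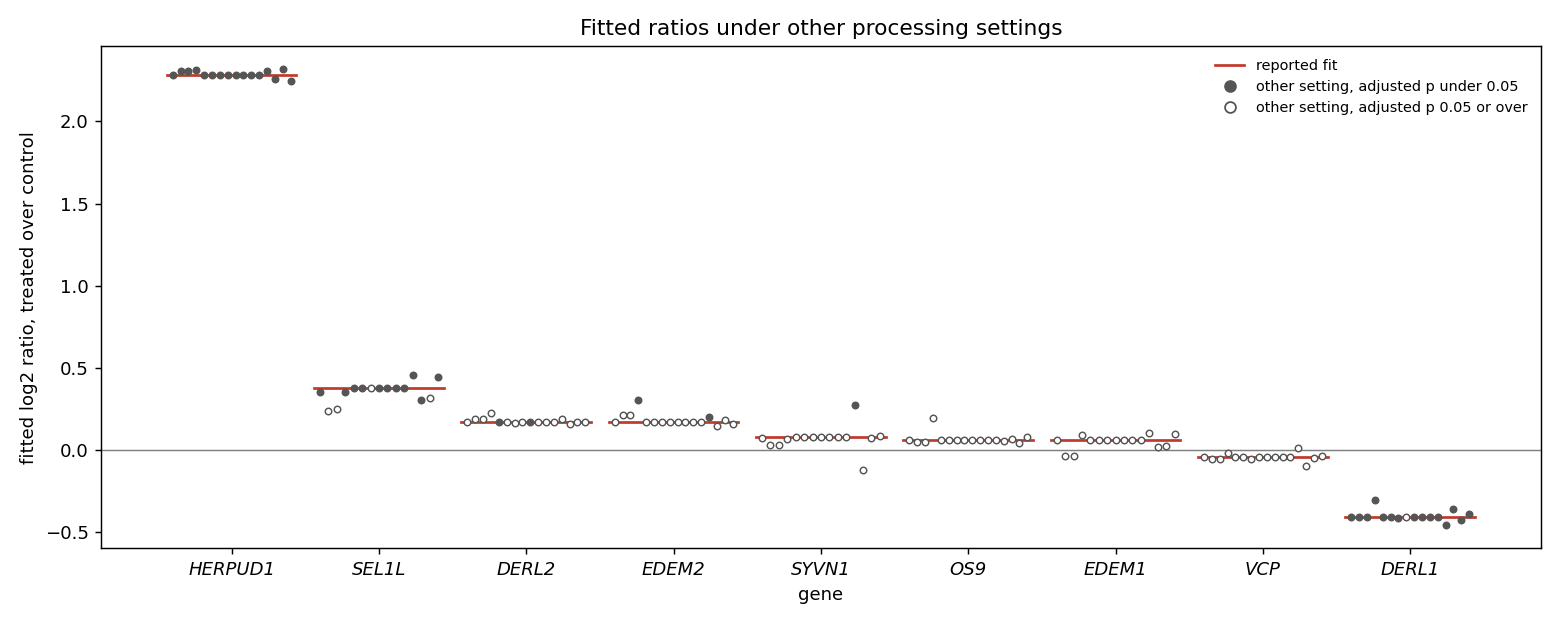
Fitted log2 ratio of treated over control cells (vertical axis) of the 9 genes (horizontal axis) in the reported fit (red line) and under up to 16 other settings of the processing (points, filled where the limma adjusted p was under 0.05). The points of HERPUD1 stay between 2.25 and 2.32 and are all filled, and those of DERL1 stay below 0 with 1 open point.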

How the data were processed

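K562 cells treated with AC-1041 were compared with control cells on 4 two-colour Agilent arrays (14833 features, 14297 gene probes). Per the file headers, the deposited intensity values were extracted with Feature Extraction 9.5.1.1, and probe positions are those of hg18. The authors also deposited a table of log10 ratios, which matched the scanner files' treated over control ratio within 0.001 for 99.9% to 100% of values and served as an alternative. Its values were treated as log10 ratios and turned to log2. Here the deposited mean and background intensities were corrected by normexp with an offset of 50 over every spot. Loess (span 0.3) then ran within each array on the gene probes alone. Spots marked as outliers (1.57% to 8.08% per array) were left out. The test took probes whose signal was well above background on 2 or more arrays in either channel. A probe also needed a spot not marked as an outlier on more than 2 arrays, which left 8852. Log2 ratios were fitted in limma 3.58.1 (R 4.3.3) for the treatment beside a term for the dyes, and p-values were adjusted over all probes tested after Benjamini-Hochberg. The 4 arrays lay on 1 slide, and their number limits the precision. Gene symbols came from accessions through RefSeq for 12002 probes and from the scanner files for 2295. A gene with several probes stood for its brightest probe. On data simulated for this comparison (8852 probes), the fit recovered 83% of 200 probes shifted by 1 on the log2 scale, and 1.78% of its calls were false. The simulated noise followed the fitted model itself, so the false share holds only where that model does. The shift was larger than the fitted changes of SEL1L and DERL1, and the recovery of such smaller changes was not simulated. Named were the 9 genes, each other ERAD gene past the threshold and the 5 genes closest to HERPUD1. The genes, lists and tests were chosen with earlier results of these data known. The alternatives were other background, normalization, filter, outlier, dye, prior and weight settings, averaged array pairs, stricter thresholds and each array left out. A fit with an array left out keeps only 1 array in that dye orientation. A low adjusted p from such a fit, as at the low end of many ranges, is not stronger evidence than the reported fit. A marker of another cell type is not reported here.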

Additional observations from a re-analysis of the deposited data

How the results depend on the processing

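HERPUD1 kept its direction and its call in all 16 alternatives, and OS9 stayed without a call in all 16. DERL1 lost its call in 1 and SEL1L in 4 of 15. The ratios that changed sign had no call in the reported fit. EDEM1 was -0.0387 from the processed signals of the scanner software and -0.0382 from the deposited table, SYVN1 ran from -0.120 to 0.276 (called at the latter, without array 1) and VCP from -0.0971 to 0.0121 as each array was left out. Of the 9 genes, 1 was called higher with processed signals, the deposited table, no dye term or a fold of at least 1.5, and 1 to 4 as arrays were left out. None (0) was called lower without the dye term or with that fold. Median centring and the prior that followed the intensity each gave 3 of the 9 genes higher, against 2 in the reported fit. Among the other ERAD genes they gave 11 and 12 higher, and both channels well above background gave 11, against 9 in the reported fit. Of the other ERAD genes, 1 was higher without the dye term and 2 with the fold, with 6 to 15 as arrays were left out. Lower were 1 with median centring, 0 without the dye term, 1 at adjusted p under 0.01 and 0 with the fold, with 1 to 3 as arrays were left out. Over all probes, calls higher were 1342 with both channels well above background, 52 without the dye term, 1354 at adjusted p under 0.01 and 535 with the fold, and 1010 to 2590 as arrays were left out, fewest without array 4 (1244 without array 3). Calls lower were 596 with median centring, 4 without the dye term, 468 at adjusted p under 0.01 and 103 with the fold, and 283 to 1469 as arrays were left out, fewest without array 4 (444 without array 3). With both channels well above background only 5587 probes were tested, and 43.2% of them were called in either direction, against 37.3% of 8852. The cause of these shifts was not tested. Tightening a threshold gives a smaller set by construction. Leaving out an array leaves fewer samples, yet without array 1 more probes were called in both directions than in the reported fit. SEL1L, SYVN1 and EDEM1 were not tested where both channels had to be well above background on all arrays. Treated and control RNA were paired within each array by the ratio itself. Averaging arrays 1 with 3 and 2 with 4, or 1 with 4 and 2 with 3, changed no call of the 9 genes. Signals close to background limit SEL1L and SYVN1. Of the other named genes, none changed sign, and DNAJB9, DUSP1 and CTH kept their call in all 16 alternatives.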
